A study of Mus musculus with 2 samples.

Results

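The cadherin and protocadherin genes were taken as every protein-coding gene whose symbol is Cdh followed by digits or begins with Pcdh in the RefSeq annotation of the mouse build GRCm38. They number 92 of 21631 protein-coding genes on the chromosomes that carry peaks, and comprise 23 Cdh genes, 12 single Pcdh genes and 57 clustered genes, namely 14 Pcdha, 22 Pcdhb and 21 Pcdhg genes. Where Suz12, one of the core proteins of Polycomb Repressive Complex 2, bound the genome was mapped by ChIP-seq in E14, a mouse embryonic stem cell line. The series holds 2 libraries precipitated with the same antibody. The 1 used here is from wild-type cells cultured for 72 h in a serum medium that lacked leukemia inhibitory factor and contained all-trans-retinoic acid at 1 µM, and the other, from Suz12-/- cells at 0 h in serum medium, was not analysed here. A gene was counted as holding a peak when a deposited peak overlapped its body or lay within 2.5 kb of it. With 1 library there is no replicate error and no p-value. The number of reads behind the peaks is unknown, so a gene without a peak may carry Suz12 below the authors' threshold.

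Cadherins are cell-surface proteins that bind each other through repeated extracellular domains in the presence of calcium. Classical cadherins such as Cdh1 (E-cadherin) and Cdh2 (N-cadherin) hold cells together at adherens junctions through catenins, and tissues exchange one cadherin for another as they form. Single protocadherins act mainly in neurons and in early morphogenesis. The clustered protocadherins lie in 3 tandem arrays, in which Pcdha and Pcdhg genes each have their own promoter and variable exon and share the last exons, while Pcdhb genes stand alone. Neurons express different combinations of them, which give each cell a surface identity. Polycomb Repressive Complex 2 methylates histone H3 at silent genes and is known for binding regions rich in unmethylated CG dinucleotides.

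Of the 92 genes 50 held a Suz12 peak (54.3%), and these 50 genes rest on 31 different peaks. Of the 12 single Pcdh genes, 8 held a peak (66.7%, exact 95% binomial interval 34.9 to 90.1), and of the 23 Cdh genes 8 did (34.8%, 16.4 to 57.3). By the same rule 13.1% of all protein-coding genes held one. Intervals cover counting error only and treat genes as independent, and those of the 2 classes overlap; the difference between them was not tested. Of the clustered genes 34 of 57 held a peak by this rule, but the bodies of Pcdha and Pcdhg genes are nested and share peaks, so that these 34 genes rest on 13 peaks. The Cdh and the single Pcdh genes rest on 9 peaks each, and no peak was shared between classes.

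The share of genes with a peak was higher among long genes. The median length was 148 kb for Cdh genes, 75.1 kb for single Pcdh genes and 17.3 kb for all protein-coding genes. Among genes longer than 100 kb that are no members, 28.5% held a peak, against 10.3% of those up to 10 kb. Of the Cdh genes longer than 100 kb, 7 of 14 held a peak, and of the single Pcdh genes of that length 4 of 5. When the peak had to lie within 2.5 kb of either gene end, 6 of 23 Cdh genes (26.1%) and 8 of 12 single Pcdh genes (66.7%) counted, against 11.7% of all genes. Under this rule too the share was higher for long genes, 23.9% of those over 100 kb that are no members against 10.2% of those up to 10 kb. Of the 23 Cdh genes 14 were over 100 kb, so their 26.1% mixes lengths and is not matched to the 23.9%. By the body rule, with Cdh genes over 100 kb taken alone, 7 of 14 held a peak, beside 28.5%. How far length accounts for the Cdh share was not tested.

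The single protocadherins carried the highest scores. The score is the authors' own value for each peak, and 325 of the 3373 peaks share the value 3100, so peaks at 3100 are not ranked among themselves here. A best score of 3100 or more was found at 4 of 12 single Pcdh genes and 1 of 23 Cdh genes, beside 1.71% of all genes, and at none of the 57 clustered genes. Those 4 genes were Pcdh7, Pcdh8, Pcdh10 and Pcdh17, and the Cdh gene was Cdh22. Their best peaks were wide as well, from 3300 bp at Cdh22 to 6308 bp at Pcdh10, beside a median of 1849 bp over all peaks.

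**Figure D1:**
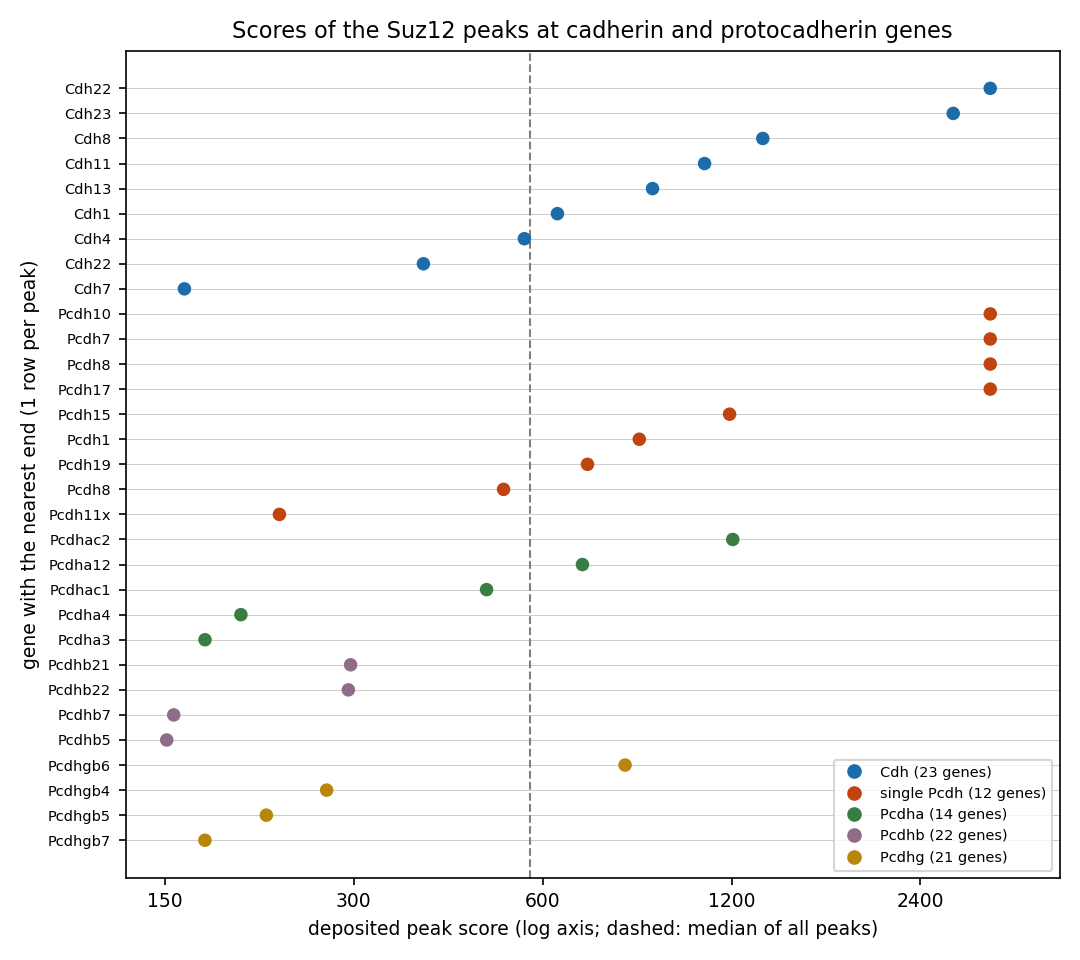
Deposited score of each of the 31 Suz12 peaks at cadherin and protocadherin genes on a log axis, 1 row per peak and named by the gene with the nearest end; colours give the class and the dashed line the median of all 3373 peaks. The 5 peaks at 3100 belong to Cdh22, Pcdh10, Pcdh7, Pcdh8 and Pcdh17, and the 4 Pcdhb peaks all score below 300.

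Among the delta-2 protocadherins, a subfamily of transmembrane adhesion proteins of the nervous system and paraxial mesoderm, 4 of 5 genes held a peak. The share over all protein-coding genes was 13.1%. The peak of Pcdh10 ran from 45376022 to 45382329 on chromosome 3 (GRCm38) and covered the annotated start at 45378398. The gene is needed for axon growth in the forebrain. At Pcdh8, a gene of the segmenting mesoderm (paraxial protocadherin), a peak of 5706 bp from 79767301 to 79773006 on chromosome 14 covered the start and most of the gene, which is 4541 bp long, and a smaller peak of score 520 followed 1779 bp beyond that end of the gene. Pcdh17, a synaptic protein of the basal ganglia, had a peak of 4954 bp that began 402 bp inside the gene and did not cover its start. Pcdh19, an X-linked epilepsy gene, had a lower-scoring peak (707, 2274 bp) that lay 940 bp from the start, inside the gene. Pcdh18 was the member without a peak, and the nearest peak lay 2.51 Mb away.

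Of the delta-1 genes 3 of 4 held a peak, beside 13.1% of all protein-coding genes. At Pcdh7, the peak of 6056 bp from 57714872 to 57720927 on chromosome 5 covered the start. Pcdh1 scored 855 with a peak of 3280 bp over its higher end, and Pcdh11x scored 228 with a peak of 1347 bp over its lower end. Pcdh9, with a body of 879 kb, held none. Of the remaining 3, Pcdh15, a protein of the tip links of inner-ear hair cells, had a peak of score 1191 that began 2321 bp inside its lower end; the start that RefSeq's promoter table gives for this gene lies 721342 bp from that peak. Pcdh12, a protocadherin of endothelium, held none at 54.5 kb from the nearest peak, and Pcdh20 held none either.

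The promoters of the genes with the top score at an annotated start are shown because Suz12 peaks covered these bases or, at Pcdh17, began just downstream of them, with 1 gene of each class without a peak for comparison. Each line gives the 250 bases before the start, 5′ to 3′ on the strand of the gene, from RefSeq on GRCm38, with every CG in capitals. Cdh22 lies on the minus strand (chr2:165234738-165234987), Pcdh10 and Pcdh7 on the plus strand (chr3:45378148-45378397 and chr5:57717831-57718080), Pcdh8 on the minus strand (chr14:79771313-79771562) and Pcdh17 on the plus strand (chr14:84443313-84443562). The genes without a peak, the first by name in each class among those matched in the promoter table, are Cdh10 on the plus strand (chr15:18820079-18820328) and Pcdh18 on the minus strand (chr3:49757317-49757566).
Cdh22: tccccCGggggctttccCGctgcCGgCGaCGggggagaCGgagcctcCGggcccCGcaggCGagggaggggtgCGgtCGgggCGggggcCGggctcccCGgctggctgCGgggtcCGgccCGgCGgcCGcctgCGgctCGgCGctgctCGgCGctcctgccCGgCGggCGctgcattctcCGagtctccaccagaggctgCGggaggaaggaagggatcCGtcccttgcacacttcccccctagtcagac
Pcdh10: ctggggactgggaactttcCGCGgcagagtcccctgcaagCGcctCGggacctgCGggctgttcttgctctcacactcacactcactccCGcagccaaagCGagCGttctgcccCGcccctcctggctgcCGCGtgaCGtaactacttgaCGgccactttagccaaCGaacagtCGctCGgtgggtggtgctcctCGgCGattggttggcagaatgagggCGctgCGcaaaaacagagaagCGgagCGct
Pcdh17: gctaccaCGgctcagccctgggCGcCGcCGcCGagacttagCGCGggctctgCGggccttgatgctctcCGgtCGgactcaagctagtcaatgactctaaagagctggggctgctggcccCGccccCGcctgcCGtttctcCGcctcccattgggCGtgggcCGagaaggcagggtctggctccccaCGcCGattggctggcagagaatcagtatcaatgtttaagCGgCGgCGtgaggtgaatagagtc
Pcdh8: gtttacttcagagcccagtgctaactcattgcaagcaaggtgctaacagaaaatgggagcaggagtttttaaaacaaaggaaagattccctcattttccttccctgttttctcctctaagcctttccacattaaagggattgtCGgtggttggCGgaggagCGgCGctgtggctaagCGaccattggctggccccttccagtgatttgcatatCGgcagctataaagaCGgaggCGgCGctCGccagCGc
Pcdh7: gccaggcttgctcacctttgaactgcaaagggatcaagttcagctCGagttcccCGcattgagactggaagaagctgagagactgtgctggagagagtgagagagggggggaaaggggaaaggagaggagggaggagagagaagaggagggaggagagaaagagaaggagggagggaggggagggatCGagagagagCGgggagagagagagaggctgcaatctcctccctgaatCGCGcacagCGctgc
Pcdh18: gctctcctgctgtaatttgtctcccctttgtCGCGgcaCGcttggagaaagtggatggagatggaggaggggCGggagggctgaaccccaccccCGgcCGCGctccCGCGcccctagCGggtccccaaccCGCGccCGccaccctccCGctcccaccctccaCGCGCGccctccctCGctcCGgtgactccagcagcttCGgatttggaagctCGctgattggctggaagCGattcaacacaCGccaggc
Cdh10: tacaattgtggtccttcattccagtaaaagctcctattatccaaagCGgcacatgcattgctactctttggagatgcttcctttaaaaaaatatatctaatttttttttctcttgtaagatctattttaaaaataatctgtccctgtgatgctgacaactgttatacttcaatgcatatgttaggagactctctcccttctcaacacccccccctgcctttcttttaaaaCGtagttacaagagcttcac

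These 250 bases hold 30 CG in Cdh22, 22 in Pcdh10, 21 in Pcdh17, 11 in Pcdh8 and 7 in Pcdh7. Of the promoters without a peak, that of Pcdh18 holds 23 CG, more than 4 of the 5 with a peak, and that of Cdh10 holds 2.

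RefSeq's promoter table has an entry for 22 of the 92 members, 13 Cdh and 9 single Pcdh genes. Over the 300 bases from 250 before to 50 after the start, the 8 promoters with a peak within 2.5 kb of the start held a median of 19.5 CG (11 to 38), and the 14 without such a peak a median of 8 (2 to 30). Over all protein-coding genes in the table the medians were 21 and 12. The median ratio of observed to expected CG was 0.697 for members with a peak at the start and 0.433 for the others. Over all protein-coding genes in the table these ratios were 0.716 and 0.542. With members divided by a peak anywhere at the gene body, the medians were 18 for 10 genes and 8.5 for 12. The ranges overlapped, since Cdh24 (30), Pcdh18 (23), Cdh20 (18) and Pcdh9 (18) had no peak and as many CG as Cdh7 (18) or more. Cdh23 (5) and Pcdh15 (8), whose peaks lay far from the tabulated start, had few.

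**Figure D2:**
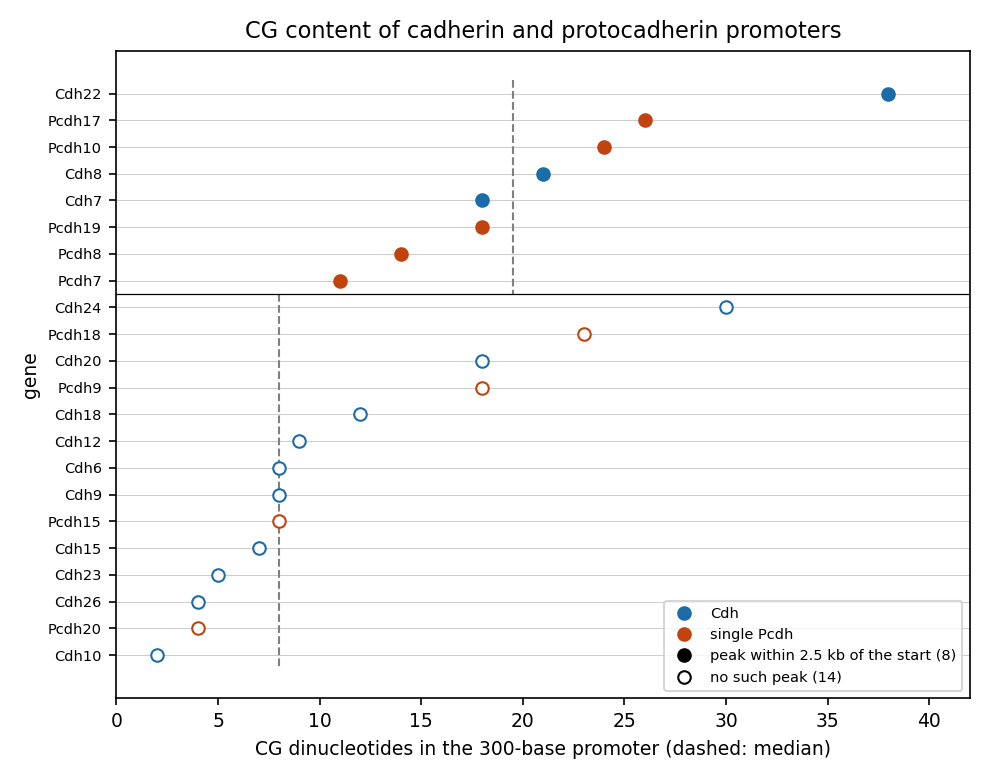
Number of CG dinucleotides in the 300-base promoter of each member with an entry, for 8 genes with a Suz12 peak within 2.5 kb of the start (filled) above 14 without (open); dashed lines mark the medians of 19.5 and 8. No promoter with a peak at the start has fewer than 11 CG, while Cdh24 and Pcdh18 lie high without a peak.

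Other short motifs were counted on both strands in the same windows, with members divided by a peak at the start as above. The E-box CANNTG, a site class of basic helix-loop-helix and zinc-finger factors, was present in 4 of 8 member promoters with a peak at the start and 9 of 14 without, beside 69.2% of all promoters. Its form CACCTG or CAGGTG, which the E-cadherin repressors of the Snail and Zeb families recognise and which is itself a CANNTG, was present in 2 of 8 (Cdh7 and Pcdh7) and 1 of 14 (Pcdh15), beside 19.6% of all promoters. Divided by a peak anywhere at the gene body, the counts for this form were 3 of 10 and 0 of 12, because the peak of Pcdh15 lies far from this promoter. The GC box GGGCGG or CCGCCC was present in 5 of 8 and 4 of 14, beside 46.4%. Each GC box also holds a CG.

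Among the Cdh genes, Suz12 lay at 2 of 5 classical type I genes, 4 of 13 type II genes and 2 of the 5 others. Over all protein-coding genes the share was 13.1%. Cdh1, the E-cadherin of epithelia and of embryonic stem cells, had a peak of 1951 bp from 106602962 to 106604912 on chromosome 8 with score 634, which covered the lower end of the gene at 106603350. Cdh4 (R-cadherin), a cadherin of retina and kidney, had a peak of 1660 bp and score 561 over its lower end. Cdh2, the N-cadherin of neural tissue and mesoderm, held none, and its nearest peak lay 828355 bp away. Cdh3 (P-cadherin), the neighbour of Cdh1, and Cdh15 (M-cadherin of muscle) held none either.

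The type II genes with a peak were Cdh22, Cdh8, Cdh11 and Cdh7. Cdh22, a cadherin of the brain, had a peak at each end of its 123 kb body, one of score 3100 over the start at 165234737 on chromosome 2 and one of score 388 over the other end. Cdh8, which marks subsets of neurons, had a peak of 2405 bp and score 1346 over its annotated start at 99416471 on chromosome 8. Cdh11, a cadherin of mesenchyme and bone, had the widest Cdh peak, 3511 bp with score 1087, over its higher end. Cdh7, which is expressed in neural crest and hindbrain, had a peak of 876 bp with score 161. This peak ranked 3276 of 3373 from the highest score and covered the annotated start at 109982900, 1 of 3 given for this gene.

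At Cdh13 and Cdh23 the peak lay inside the gene, away from the ends. Cdh23, the partner of Pcdh15 in the hair-cell tip link, had a peak of 3181 bp and score 2706 from 60685016 to 60688196 on chromosome 10, 8294 bp downstream of its start. Cdh13 (T-cadherin), which is anchored by a lipid and lacks a cytoplasmic tail, had a peak of 1861 bp and score 898 that began 143388 bp inside its lower end. Each of these peaks also lay within 2.5 kb of a long non-coding RNA gene, Gm51803 and Gm51555. Exons and introns were not used here.

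The 42 members without a peak differed widely in their distance from the nearest one. The 15 Cdh genes without a peak lay 15.5 kb (Cdh26) to 6910 kb (Cdh10) from the nearest peak, with a median of 785 kb. The far ones include 5 type II genes on chromosome 15, where Cdh6 lay 1.12 Mb, Cdh18 2.83 Mb, Cdh12 4.71 Mb, Cdh9 4.82 Mb and Cdh10 6.91 Mb from any peak. Of all 21631 genes, 13 (0.0601%) lay as far from a peak as Cdh10, itself included. Pcdh20 at 4.02 Mb and Pcdh9 at 5.41 Mb were comparable. In all 7 of the 92 members (7.61%) lay more than 2.5 Mb from a peak, beside 3.1% of all genes, and 8 members (8.7%) lay more than 1 Mb away, beside 13.4% of all genes. The share of all members together was thus above that of all genes at the farther limit and below it at the nearer one. The 92 members include the 57 clustered genes, none of which lay more than 1 Mb from a peak. Of the other classes, 5 of 23 Cdh genes (21.7%) and 3 of 12 single Pcdh genes lay more than 1 Mb away. Both shares were above the 13.4% of all genes, and the differences were not tested. Pcdh18, at 2.51 Mb, lay just past the farther limit. The far genes are not separate observations. The 5 on chromosome 15 all lie between the peaks that start at 11903136 and 26308594. Pcdh20 and Pcdh9 lie in the same stretch of chromosome 14, between a peak ending at 84448918 and one starting at 99298612. Nearer to a peak were the endothelial Cdh5 (VE-cadherin) at 25430 bp, Cdh16 at 59002 bp, Cdh15 at 168999 bp, Cdh17 at 368136 bp and Cdh24 at 470743 bp. Cdh20, Cdh2 and Cdh19 lay 784556, 828355 and 904593 bp away. For Cdh3, at 46051 bp, the nearest peak was that of Cdh1.

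**Figure D3:**
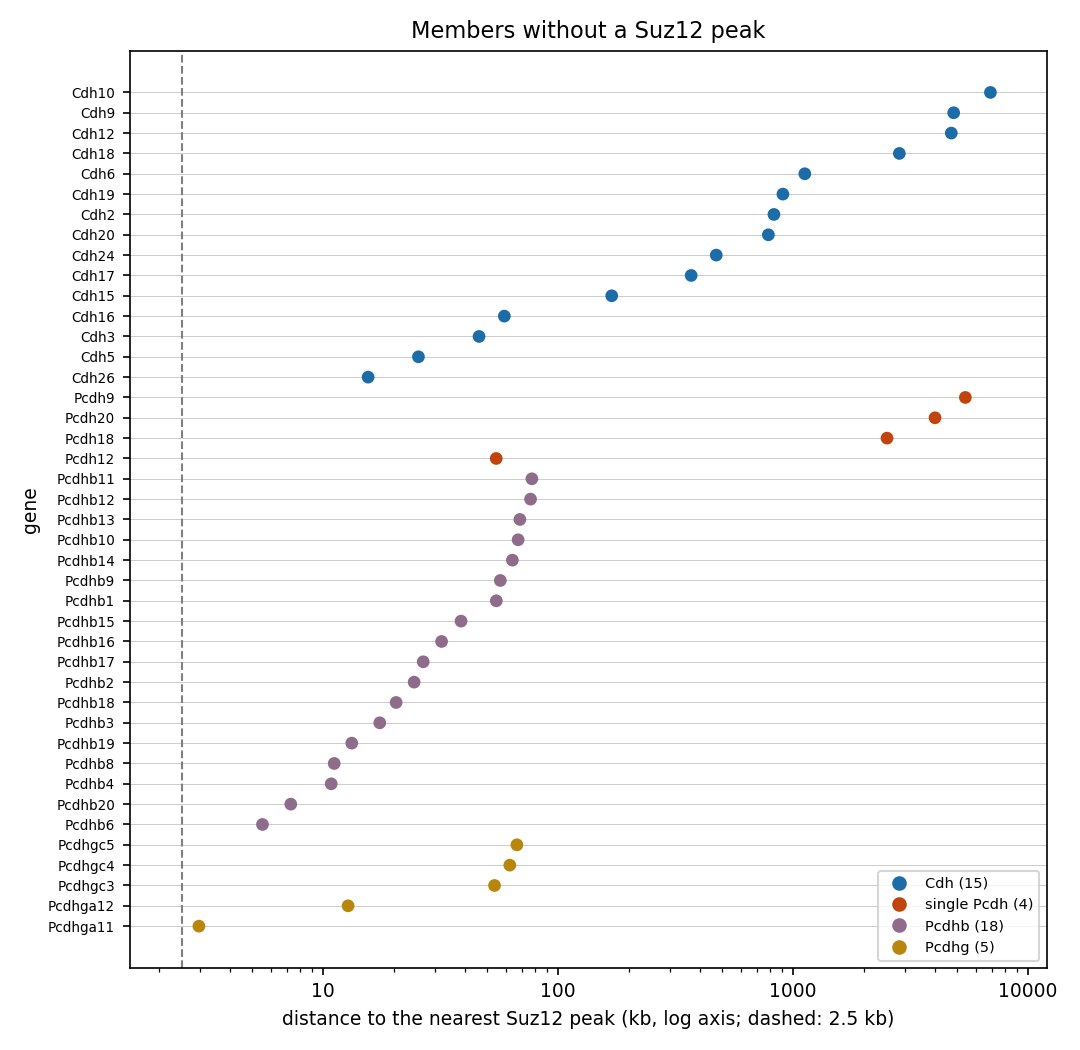
Distance from the gene body to the nearest Suz12 peak for the 42 members without a peak, on a log axis in kb, coloured by class, with the 2.5 kb limit dashed. Cdh10, Pcdh9, Cdh9, Cdh12 and Pcdh20 lie more than 4 Mb from a peak, while all clustered genes without a peak lie within 77.3 kb of one.

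The clustered protocadherins on chromosome 18 carried narrow peaks of low score spread over the arrays. The 13 peaks had a median score of 272 (151 to 1205) and a median width of 1371 bp (945 to 2912), beside 572 and 1849 bp for all peaks, and 3 of the 13 reached the median score of the list. They covered 3.26% of the merged Pcdha bodies, 6.73% of the Pcdhb bodies and 3.6% of the Pcdhg bodies, beside 0.68% for single Pcdh, 0.274% for Cdh and 0.543% for all protein-coding genes. These percentages depend on gene length. The merged Pcdhb bodies measure 75.6 kb, of which 5.09 kb was covered, and the Cdh bodies 6280 kb, of which 17.2 kb was covered. Since Pcdha and Pcdhg genes end together within each array (all 14 Pcdha genes between 37187657 and 37188897), each peak was assigned to the gene whose other, unshared end lay nearest. For Pcdhb genes, which share no end, the lower end was used as well. In each array a gene was passed over when its lower end lay above the midpoint of a peak that did not reach that end. At Pcdhb5, Pcdhb7 and Pcdhb21 the higher end lay nearer to the peak.

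In the Pcdha array, 36930285 to 37188897, 5 peaks lay at Pcdha3, Pcdha4, Pcdha12, Pcdhac1 and Pcdhac2. The highest score, 1205, was at Pcdhac2, from 37143100 to 37145386, and this peak lies in the body of all 14 Pcdha genes, which is why every one of them counts as holding a peak. Pcdha1, Pcdha2, Pcdha5, Pcdha6, Pcdha7, Pcdha8, Pcdha9, Pcdha10 and Pcdha11 count only through peaks assigned to other genes of the array, and their best score is that of Pcdhac2. Pcdha12 scored 694, Pcdhac1 489, Pcdha4 198 and Pcdha3 174. The C-type genes Pcdhac1 and Pcdhac2, the last of the array and known for constitutive rather than random expression, both had a peak at their own end, against 3 of the 12 numbered genes. By own ends, 5 of 14 Pcdha genes (35.7%) held a peak. Of all protein-coding genes, 11.7% had a peak within 2.5 kb of either end.

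In the Pcdhb array, whose genes are 2.34 to 5.27 kb long and do not nest, 4 of 22 genes (18.2%, 5.19 to 40.3) held a peak, beside 10.3% of other genes up to 10 kb. They were Pcdhb21 (297), Pcdhb22 (294), Pcdhb7 (155) and Pcdhb5 (151), and the first 2 of these are the last genes of the array. The peaks of Pcdhb21 and Pcdhb22 each lie within 2.5 kb of both genes. All 4 scores were below the median of the list, and those of Pcdhb7 and Pcdhb5 were near the lowest score deposited, 150.3. The 18 other Pcdhb genes lay 5.52 to 77.3 kb from a peak.

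In the Pcdhg array, 37661775 to 37841873, the 4 peaks were assigned to Pcdhgb4, Pcdhgb5, Pcdhgb6 and Pcdhgb7. The strongest, of score 812 and 2912 bp, ran from 37741898 to 37744809 over the unshared end of Pcdhgb6. Pcdhgb4 scored 272, Pcdhgb5 218 and Pcdhgb7 174. Thus 4 of 6 protein-coding Pcdhgb genes, 0 of 12 Pcdhga genes and 0 of 3 Pcdhgc genes had the nearest own end to a peak, although A- and B-type genes are interspersed along the array; this grouping was made after the values were seen and was not tested. The peak of Pcdhgb6 also lay within 2.5 kb of the own end of Pcdhga10. Pcdhgb1 and Pcdhgb2 had no peak of their own. By the body rule, which 13.1% of all protein-coding genes met, 16 of 21 Pcdhg genes counted, all through these 4 peaks. Beside the 4 named, they were Pcdhgb1, Pcdhgb2, Pcdhga1, Pcdhga2, Pcdhga3, Pcdhga4, Pcdhga5, Pcdhga6, Pcdhga7, Pcdhga8, Pcdhga9 and Pcdhga10, whose best score is that of the peak at Pcdhgb6, and the 5 without were Pcdhga11, Pcdhga12, Pcdhgc3, Pcdhgc4 and Pcdhgc5, the last of the array. Pcdhga11, 2959 bp from a peak, was the only one of the 92 genes just outside the limit, and lay within 5 kb. The C-type genes Pcdhgc3 to Pcdhgc5 lay 53596 to 66732 bp from a peak, while both C-type Pcdha genes held one.

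**Figure D4:**
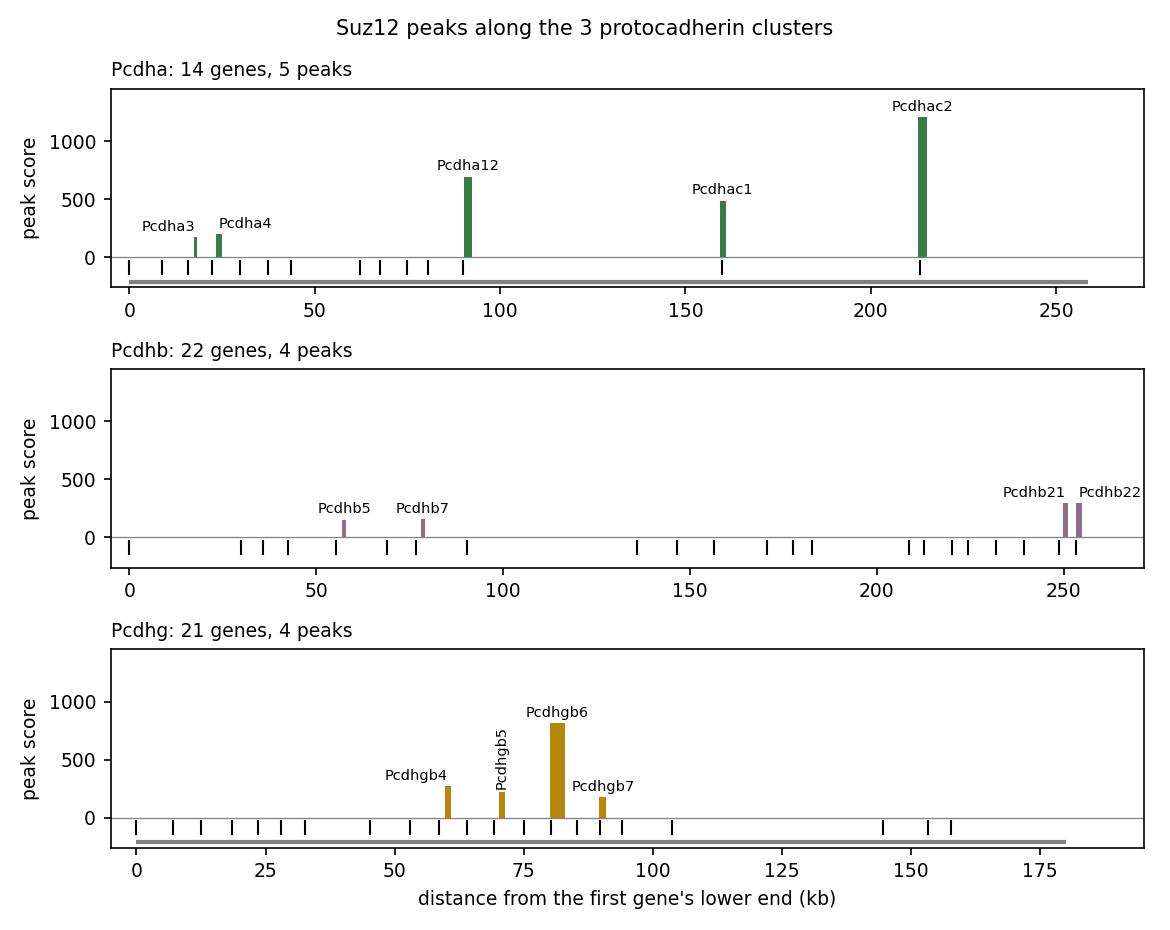
Suz12 peaks along the Pcdha, Pcdhb and Pcdhg arrays, with the deposited score as bar height and the peak width to scale, against the distance in kb from the first gene's lower end. Short black ticks mark the lower ends of the genes and the grey line the span over which Pcdha and Pcdhg bodies nest. Peaks were assigned to 5 of 14, 4 of 22 and 4 of 21 genes, though 8 of the 13 do not reach the tick. The highest bar, of 1205, is at Pcdhac2.

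RefSeq also lists 3 protein-coding models, Gm37013, Gm38666 and Gm38667, that span much of the arrays and are not members by symbol. They overlap 12 of the 13 clustered peaks, all but that of Pcdha3.

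Peaks lay mostly on the inner side of gene ends. Of the 13 clustered peaks, 8 lay wholly inside the gene, beginning 273 bp (Pcdha12) to 1611 bp (Pcdha3) from its lower end. Their scores ran from 151 to 694. The other 5, at Pcdhac1, Pcdhac2, Pcdhb22, Pcdhgb6 and Pcdhgb7, covered the end, with scores from 174 to 1205. The midpoints of all 13 lay 276 to 2109 bp inside the gene, counted from its lower end. A clustered peak that did not reach a lower end could be assigned only to a gene whose lower end lay below its midpoint. The inner side of such peaks therefore followed from the assignment rule. Among Cdh and single Pcdh genes with a tabulated start and a peak within 2.5 kb of it, the midpoint lay downstream of the start at 7 of 8, by a median of 704.5 bp, and Pcdh7 was the exception, with a midpoint 182 bp upstream. Over all protein-coding genes with such a peak, 82.0% of midpoints lay downstream, by a median of 387 bp. By annotated starts, the inner side was therefore the usual one for all genes as well as for the members with such a start.

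**Figure D5:**
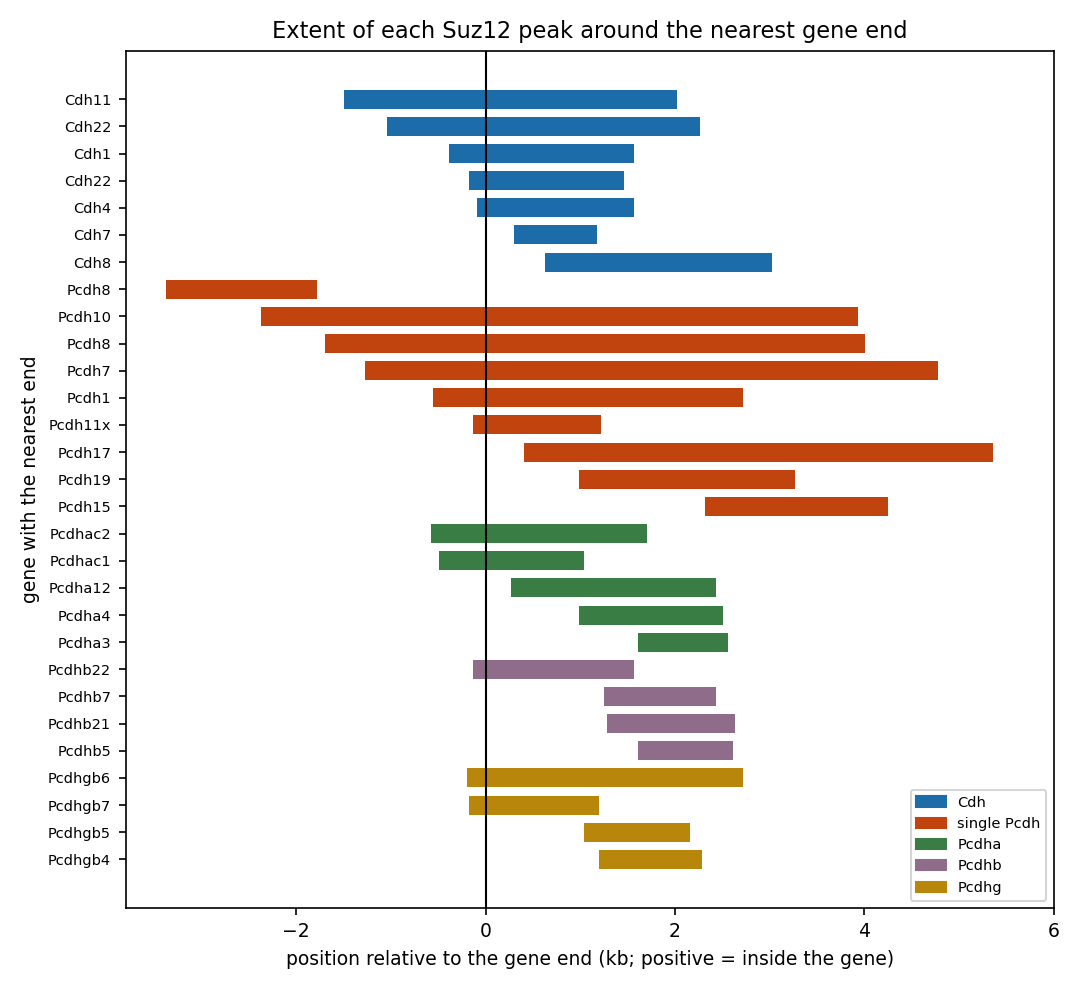
Extent of each Suz12 peak in kb relative to a gene end, the nearest for Cdh and single Pcdh genes and the lower for clustered genes. Positive values lie inside the gene, colours give the class, and the interior peaks of Cdh13 and Cdh23 are left out. Most bars lie mainly to the right of 0, the widest cover the end at Pcdh10, Pcdh8 and Pcdh7, and 8 of 13 clustered bars do not reach it. By the assignment rule, clustered bars that do not reach the end could lie only to the right of 0.

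Long non-coding RNA genes lay close to many single Pcdh peaks. Of the 9 peaks at single Pcdh genes, 8 lay within 2.5 kb of an annotated long non-coding RNA gene or overlapped it, the exception being the peak of Pcdh15. Both Pcdh8 peaks are counted here. With peaks within 3 kb joined they form a single peak, and single Pcdh genes rest on 8. For Cdh genes this held for 4 of 9 peaks and for clustered genes for 0 of 13, beside 908 of all 3373 peaks (26.9%) and 30.5% of the peaks at or above the median score. The partners include 2610316D01Rik at Pcdh10, 4932441J04Rik at Pcdh7, Gm32498 at Pcdh17, Gm9748 at both Pcdh8 peaks and A330008L17Rik at Cdh8. The list has no strand, so a peak cannot be given to either partner.

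Related genes were read from lists of the pathway. Of 27 other members of the cadherin superfamily 12 held a peak (44.4%, 25.5 to 64.7), beside 13.1% of all protein-coding genes. Each of the 12 had a peak within 2.5 kb of a gene end, as did 11.7% of all genes. The scores given are those of the best peak of each gene, which at Dchs1 was a peak inside the gene, away from the ends. They included the giant planar-polarity cadherins Dchs2 (2817), Fat4 (1306), Celsr3 (730), Fat3 (676), Celsr1 (407) and Dchs1 (386), the calsyntenins Clstn1 (1080) and Clstn2 (912), and Ret (1362), a receptor kinase with cadherin-like domains. Cdhr2 (863), Cdhr1 (173) and Dsg2 (168) were the others. Of the desmosomal cadherins, which join epithelial cells, Dsg2 alone held a peak out of 9 Dsc and Dsg genes. Fat1, Fat2, Celsr2 and Clstn3 held none.

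The share of intracellular partners with a peak was near that of all genes. Of 18 catenins and junction partners 3 held one (16.7%, 3.58 to 41.4), beside 13.1% of all genes. These were Pkp1, a plakophilin of desmosomes (2118), and the neural catenins Ctnna2 (1523) and Ctnnd2 (729), each with a peak inside the gene. Ctnnb1 (beta-catenin), Ctnna1 and Jup, which link cadherins to the cytoskeleton, held none, and neither did Ctnnd1. Of 7 repressors of Cdh1, Twist2 (1387), Twist1 (773) and Zeb1 (250) held a peak, and Snai1, Snai2, Zeb2 and Tcf3 none. This share was 42.9% (9.9 to 81.6), an interval that includes the 13.1% of all genes. None of 6 regulators of the clustered genes, among them Ctcf, the cohesin subunit Rad21 and Smchd1, held a peak (exact 95% interval up to 45.9%). That interval, too, includes the 13.1% of all genes.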

How the data were processed

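Bowtie, MACS and the build GRCm38 (mm10) are named in the submitters' processing notes; the sources used here give no versions, parameters, control library or pooling. Each of the 3373 deposited peaks has a start, an end and a score from the authors, and the file does not state the scale of this score. Depth is unknown. Positions are printed counting from 1. Peaks were set against RefSeq gene bodies (GRCm38.p6), which carry no strand or exons, and against 250 bases before to 50 after annotated starts in a RefSeq promoter table; where a gene has several starts, the one nearest a peak was used. Intervals are exact (Clopper-Pearson, 95%, scipy 1.17.1; pandas 2.3.3) and cover counting error only. The overlap code was tested on simulated data. All members with a peak are named, nested clustered genes by the peak they share; pathway genes come from 4 lists. Members, lists and rules were chosen with earlier results of these data known. Assignment of clustered peaks to unshared gene ends was added after seeing the data. The knockout library was not analysed here.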

Additional observations from a re-analysis of the deposited data

How the results depend on the processing

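Of 79 alternative values, 65 stayed within the main value's interval, count tolerance or SD, 14 moved and 0 reversed; small classes have wide intervals, so this tally says little about their stability. The share of clustered genes with a peak fell from 59.6% to 24.6% when the peak had to lie within 2.5 kb of either gene end, since nested bodies then no longer count; Pcdha went from 100% to 35.7% and Pcdhg from 76.2% to 23.8%, with the same values for the unshared end. Pcdhb went from 18.2% to 0% (exact upper bound 15.4%) when peaks had to reach the median score and also when they had to reach 300.6, double the lowest score. The share of all genes, 13.1%, was 12.3% for peaks overlapping the body, 12.6% within 1 kb, 14% within 5 kb, 7.24% at or above the median score, 10.1% at 300.6 or above, 11.7% at either end and 10.0% at the annotated start. Cdh ranged from 23.1% (3 of 13 genes with a tabulated start) to 34.8% and single Pcdh from 55.6% (5 of 9) to 66.7%. The start rule was run for the 22 members matched in the promoter table, none of them clustered. When peaks within 3 kb were joined, distinct peaks went from 9 to 8 at single Pcdh genes and from 4 to 3 at Pcdhb genes. The counts at Cdh, Pcdha and Pcdhg genes did not change. No paired analysis was possible because each group has 1 library and 1 peak list was used.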
